A study of Mus musculus with 8 samples.

Results

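The 34 genes described here encode the enzymes that make cholesterol, the SREBP machinery that controls them, and proteins that move, store or export sterols. They form a named list whose rule is function and uses no measured value, though the list was drawn up with earlier results of these data known. The list covers 21 synthesis enzymes, 7 genes of SREBP control and 6 genes of transport, storage and efflux. All 34 were in both expression tables, out of 23861 genes in the hair follicle stem cell (HFSC) table and 16231 in the epidermal stem cell (EpdSC) table. Bulk RNA-seq had been made from dorsal skin cells sorted by FACS, with HFSCs gated as CD34+CD49f+Sca-1- and EpdSCs as CD34-CD49f+Sca-1+. Each cell type had 2 WT and 2 Msx2-KO libraries in telogen, the resting phase of the hair cycle. WT mice were C57BL/6J from a commercial supplier, matched by hair cycle. The methods do not give the strain background of the Msx2-KO line. Any difference of strain or colony could not be told apart from genotype in either cell type. Msx2-KO mice were homozygous for a germline allele that carries a pMC1-neo cassette upstream of exon 2, so the allele was present in every tissue and not only in the sorted cells. The WT HFSCs came from mice of 2 months, and the other 3 groups from mice of 6 months. Age and genotype therefore cannot be told apart in the HFSCs. In both cell types the library names also fall in separate series by genotype. Whether WT and Msx2-KO libraries were prepared or sequenced apart is not stated in the sources used here. Any such difference could not be told apart from genotype. Whether the 2 libraries of a group came from separate mice is not stated in the sources used here, so p-values measure the spread between these libraries, which may be technical. In bulk RNA, fewer cells of a type and less RNA per cell cannot be told apart.

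Cholesterol is built from acetyl-CoA through HMG-CoA, mevalonate, the prenyl diphosphates, squalene and lanosterol. When membrane sterol is low, SCAP carries the SREBP precursors out of the endoplasmic reticulum, a pair of proteases cut them free, and the released factors switch on genes of sterol and fatty acid synthesis. INSIG proteins hold SCAP back when sterol is plentiful. In skin, cholesterol is one of the main lipids of the epidermal barrier, and the sebaceous gland makes and secretes large amounts of lipid beside the hair follicle.

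RefSeq start sites on GRCm38.p6 were found for 28 of the 34 genes. Stard4, Fdft1, Npc1, Acat1, Sqle and Fdps had no entry. The 250 bases before each start were searched on both strands for TCACNCCAC (a form of the sterol regulatory element, the SREBP binding sequence), for CCAAT (the NF-Y box, often found beside it) and for GGGCGG (the GC box bound by Sp1). None of the 3 patterns lies inside another. TCACNCCAC was found before 1 of the 28 genes, Hmgcs1, and before 1.22% of all 27025 genes with a listed start. CCAAT was found before 22 of the 28 genes and before 37.5% of all genes. GGGCGG was found before 23 of the 28 genes and before 35.4% of all genes. The genes behind these shares were not matched to the list in expression, gene type or base content, so the shares do not compare it with similar genes. A match is a string of letters and not a shown binding site, and its absence from this window says nothing of SREBP. The upstream sequences are shown for 4 genes that recur in the results. No link between sequence and level was tested. Hmgcs1 (chr13:119690101-119690350, plus strand) lay above WT in both cell types, Insig1 (chr5:28071162-28071362, plus strand) is the sterol-dependent brake on SCAP, Lbr (chr1:181842402-181842651, minus strand) carried the one call in EpdSCs, and Soat1 (chr1:156474332-156474578, minus strand) had the largest fold among the 34 genes in HFSCs. Each runs 5′ to 3′ on the strand of the gene and ends at the base before the start site or, for Insig1 and Soat1, at the last base before an exon annotated in GENCODE M21 (49 and 3 bases earlier), with TCACNCCAC and CCAAT matches of either strand in capitals.
Hmgcs1: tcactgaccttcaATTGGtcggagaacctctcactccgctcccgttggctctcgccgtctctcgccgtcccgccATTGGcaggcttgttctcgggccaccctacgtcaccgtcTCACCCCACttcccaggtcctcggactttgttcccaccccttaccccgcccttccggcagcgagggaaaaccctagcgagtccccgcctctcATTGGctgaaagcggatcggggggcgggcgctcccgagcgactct
Insig1: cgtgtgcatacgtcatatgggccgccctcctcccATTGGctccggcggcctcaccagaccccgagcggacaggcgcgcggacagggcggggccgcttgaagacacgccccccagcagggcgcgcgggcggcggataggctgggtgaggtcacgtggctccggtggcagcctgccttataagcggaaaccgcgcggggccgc
Lbr: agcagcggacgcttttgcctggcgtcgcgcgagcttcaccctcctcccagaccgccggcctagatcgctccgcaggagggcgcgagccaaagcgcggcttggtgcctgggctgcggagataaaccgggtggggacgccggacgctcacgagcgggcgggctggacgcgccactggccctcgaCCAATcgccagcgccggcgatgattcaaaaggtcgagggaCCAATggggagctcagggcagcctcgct
Soat1: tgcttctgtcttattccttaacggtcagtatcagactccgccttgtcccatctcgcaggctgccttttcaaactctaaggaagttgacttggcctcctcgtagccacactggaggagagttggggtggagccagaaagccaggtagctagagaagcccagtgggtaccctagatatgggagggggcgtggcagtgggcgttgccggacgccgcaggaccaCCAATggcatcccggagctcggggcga
Hmgcs1 held its sterol element match between CCAAT boxes read on the opposite strand (ATTGG), and each of the other 3 held at least 1 CCAAT box and no sterol element match.

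HFSC totals ran from 3132974 to 11016659 estimated counts, and EpdSC totals from 14216483 to 24694442 normalized units. Mitochondrial and ribosomal RNA genes held 11.2% and 41.4% of the WT HFSC totals, 57.0% and 62.5% of the totals labelled Msx2-KO, and in EpdSCs 26.9% and 19.1% against 5.16% and 9.61%. Genes at 0 were more frequent in the libraries labelled Msx2-KO. In HFSCs they made up 25.2% and 14.1% of tested genes, against 0.118% and 0.964% in WT, and in EpdSCs 20.2% and 5.82% against 1.73% and 1.29%. The targeted gene did not fall. Msx2 had 53 and 7 estimated counts in WT HFSCs and 40 and 18 in those labelled Msx2-KO (edgeR adjusted p = 0.975). In EpdSCs it had values of 58.5 and 85.4 against 150.3 and 22.2 (limma adjusted p = 0.865). The values are for the whole gene and do not show which exons the reads came from, so every direction below rests on the labels. HFSC markers were present but lower in the HFSC libraries labelled Msx2-KO, with 6 of 6 below WT in both libraries, as were 33.5% of all tested genes, and Cd34, the gene of the gate, had 491 and 436 CPM in WT against 177 and 144 CPM under the Msx2-KO label. The EpdSC table held Ly6a, the Sca-1 gene, at 472 and 544 (WT) and 826 and 3493 (Msx2-KO label), and did not list Cd34.

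In HFSCs the storage enzyme Soat1, the regulator Srebf1 and the synthesis enzymes Idi1, Fdps and Hmgcs1 lay above WT in both libraries labelled Msx2-KO, but no gene tested passed the adjusted threshold. Values are counts scaled to 1000000 (CPM) on TMM-scaled library sizes, and a call means a Benjamini-Hochberg adjusted p under 0.05 with a fold over 2. By edgeR's quasi-likelihood test 0 of the 33 tested genes of the list were called in either direction, against 0% higher and 0% lower of the 14422 genes tested. Mvd fell below the count filter. At an unadjusted p under 0.05 with a fold over 2, 5 of the 33 were higher and 0 lower, where 5.02% of all tested genes were higher and 12.2% lower. DESeq2 called 4 of the 33 higher (Soat1, Idi1, Srebf1 and Fdps) and 0 lower, against 2.24% and 2.43% of genes, and limma-trend called Soat1 alone, against 1.1% of genes higher and 8.66% lower. Leaving out 1 library at a time, with the lone library assumed to vary like the others, gave 1 call higher without either WT replicate (Soat1 both times), and 0 lower, against 0.607% and 0.585% of all genes higher and 0.432% and 0.211% lower. Without Msx2-KO replicate 1 the list held 7 calls higher and 1 lower, where 15.1% and 21.5% of all genes were called, and without Msx2-KO replicate 2 it held 10 and 4, where 17.3% and 41.8% were. For any one gene, exact permutation of 2 against 2 libraries gives no p below 0.333.

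For 12 of the 33 genes both Msx2-KO-labelled libraries were above both of WT, against 17.5% of all tested genes, and below both for 6, against 33.5%. The other 15 overlapped. The median log2 fold change over the 33 was 0.41, with 22 positive and 11 negative, where the median over all tested genes was -0.14. With library totals as the scale instead of TMM, the median of all genes moved by -0.86 and that of the list went to -0.48, with 15 positive and 18 negative. Relative to all genes the list stood 0.55 higher with TMM and 0.52 higher with library totals, but 0.26 without WT replicate 2, 1.11 without Msx2-KO replicate 2, and 1.06 both with the replicate number as a block and without the count filter. On library totals, a scale applied to these positions after the values were seen, 6 of the 33 genes lay above WT in both libraries and 10 below, against 5.98% and 49.8% of all genes. On that scale the log2 fold change was 3.89 for Soat1, 2.19 for Idi1, 1.72 for Fdps, 1.30 for Srebf1, 1.15 for Msmo1, 0.79 for Insig2, 0.49 for Scap and 0.25 for Hmgcs1, each smaller than on the TMM scale given below.

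**Figure D1:**
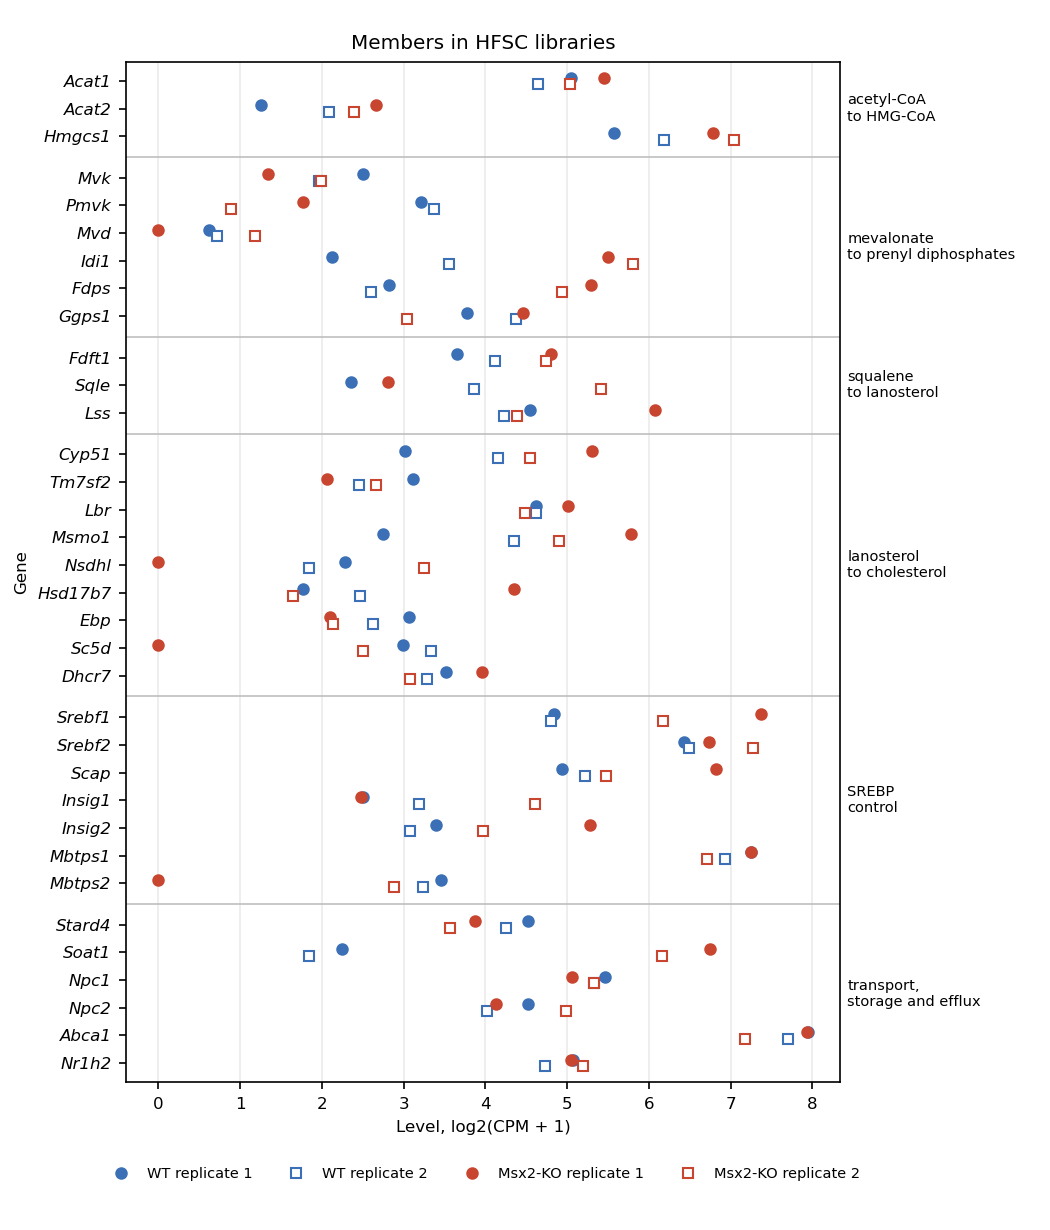
Level of each of the 34 genes in the 4 HFSC libraries, as log2(CPM + 1) on the x axis, with genes in rows grouped by role. Blue marks WT and red Msx2-KO, filled circles are replicate 1 and open squares replicate 2. Soat1 shows the widest gap between the groups, and Mvd, Nsdhl, Sc5d and Mbtps2 sit at 0 in Msx2-KO replicate 1.

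Soat1, the enzyme that esterifies cholesterol for storage in lipid droplets (chr1:156424525-156474332, minus strand), had 3.74 and 2.59 CPM in WT and 106 and 70.5 CPM in the Msx2-KO-labelled libraries. These rest on 28 and 8 estimated counts in WT and 974 and 332 in the others. The groups lay far apart, with a log2 fold change of 4.77 ± 0.45 (SE, n = 2 and 2), or 27.3-fold, at an unadjusted edgeR p of 0.000367 and a Benjamini-Hochberg adjusted p of 0.143. DESeq2 gave it an adjusted p of 8.02e-10 and limma-trend 0.0327, and without 1 library in turn edgeR gave 0.000466 to 0.00783. No annotated exon of another gene overlaps its exons. Per kilobase of exon it moved from rank 33 of the 34 genes in WT, at a mean of 0.323 CPM per kb, to rank 10, at 9.02 CPM per kb.

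Among the genes of sterol transport, the lysosomal exporters Npc1 and Npc2 and the efflux pump Abca1 gave no such gap. Npc1 had 43.0 and 39.1 CPM in WT against 32.2 and 39.1 CPM under the Msx2-KO label, with log2 fold change -0.20 ± 0.32 and groups that all but touched. Npc2 had 21.9 and 15.2 CPM (WT) and 16.4 and 30.8 CPM (Msx2-KO label), and its groups overlapped. Abca1 had 245 and 207 CPM in WT and 244 and 144 CPM in the Msx2-KO-labelled libraries, also overlapping, and was the highest of the 34 genes per kilobase in WT at 21.8 CPM per kb. Nr1h2, which encodes the sterol-sensing nuclear receptor LXR beta, had 32.7 and 25.5 CPM in WT against 32.1 and 35.7 CPM under the Msx2-KO label, with the WT library of replicate 1 inside the range of the others. Stard4, a carrier of sterol between membranes, lay below WT in both libraries, with 22.0 and 18.1 CPM (WT) and 13.6 and 10.8 CPM (Msx2-KO label) and log2 fold change -0.71 ± 0.57 (edgeR unadjusted p = 0.277). The 6 genes of transport and storage had a median log2 fold change of 0.01, with 3 positive and 3 negative.

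Srebf1, the gene of the SREBP that drives mainly fatty acid synthesis (chr11:60199089-60222582), had the largest fold among the genes of SREBP control. It had 27.6 and 27.0 CPM in WT and 165 and 71.1 CPM in the Msx2-KO-labelled libraries. Its WT libraries nearly coincided and both others were above them, with log2 fold change 2.11 ± 0.49, edgeR unadjusted p = 0.0120 and adjusted p = 0.143. It stood at 1.35 on the log2 scale once Msx2-KO replicate 1 was left out. Srebf2, whose product drives mainly sterol synthesis, had 85.4 and 89.2 CPM in WT against 106 and 154 CPM under the Msx2-KO label and a log2 fold change of 0.57 ± 0.28, without overlap on this scale and with a value of -0.30 under library totals. Scap, the escort of both, had 29.7 and 36.2 CPM (WT) and 112 and 43.5 CPM (Msx2-KO label). Most of that difference sat in Msx2-KO replicate 1, and the log2 fold change of 1.25 ± 0.55 became 0.38 without it. Insig2, which retains SCAP, had 9.48 and 7.44 CPM in WT and 37.7 and 14.6 CPM in the Msx2-KO-labelled libraries, a log2 fold change of 1.63 ± 0.73 that became 0.75 without the same library. The brake Insig1 overlapped, with 4.67 and 8.08 CPM in WT against 4.57 and 23.3 CPM under the Msx2-KO label. Mbtps1, the first protease, was level at 151 and 121 CPM (WT) and 151 and 104 CPM (Msx2-KO label). Mbtps2, the second, had 9.94 and 8.40 CPM in WT and 0 and 6.37 CPM in the Msx2-KO-labelled libraries, with 0 estimated counts in Msx2-KO replicate 1.

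Of the 3 genes of the first steps, 2 lay above WT in both libraries and 1 overlapped. Hmgcs1, which makes HMG-CoA (chr13:119690379-119708261, the gene with the sterol element match shown above), had 46.6 and 71.9 CPM in WT against 109.6 and 131 CPM under the Msx2-KO label. The groups did not overlap, and the log2 fold change was 1.03 ± 0.32, edgeR unadjusted p = 0.0308 and adjusted p = 0.207, which became 0.891 with library totals. Acat2, the cytosolic thiolase before it, had 1.39 and 3.23 CPM (WT) and 5.34 and 4.25 CPM (Msx2-KO label) from 10 to 49 estimated counts (edgeR unadjusted p = 0.415), and Acat1, the mitochondrial one, had 32.0 and 23.9 CPM in WT and 42.6 and 31.8 CPM in the Msx2-KO-labelled libraries and overlapped. Of the genes from mevalonate to the prenyl diphosphates, Idi1, the isomerase of the pathway's building block, had 3.37 and 10.7 CPM in WT against 44.3 and 55.0 CPM under the Msx2-KO label. Fdps, which joins the units into farnesyl diphosphate, had 6.04 and 5.07 CPM (WT) and 38.0 and 29.5 CPM (Msx2-KO label). Both were clear of WT in both libraries, with log2 fold changes of 2.85 ± 0.72 and 2.59 ± 0.53 and edgeR unadjusted p of 0.0157 and 0.00737. The adjusted p was 0.143 for each, and the log2 fold change of Idi1 ran from 2.20 without WT replicate 1 to 3.80 without WT replicate 2. An exon of Fdps overlaps one of Gm43738 on the same strand, and Idi1 and Hmgcs1 overlap predicted genes on the other. Exons of Srebf1, Scap, Cyp51, Fdft1, Lbr, Lss, Ggps1, Tm7sf2, Mbtps2 and Npc1 also overlap those of other genes. For Srebf1 (Mir6922), Tm7sf2 (Vps51), Mbtps2 (Yy2) and Lbr (Gm26004) an overlapping gene is on the same strand. Reads of all these genes may be shared, and the use of strand in counting is not given in the sources used here.

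The kinases between them were not above WT in both libraries. Mvk, mevalonate kinase, overlapped at 4.67 and 2.91 CPM in WT and 1.52 and 2.97 CPM in the Msx2-KO-labelled libraries. Pmvk, the next kinase, was below WT in both, with 8.28 and 9.37 CPM in WT against 2.40 and 0.849 CPM under the Msx2-KO label and a log2 fold change of -2.42 ± 1.25 (edgeR unadjusted p = 0.122). Mvd, the decarboxylase, had at most 6 estimated counts in any library. Ggps1, which makes the geranylgeranyl lipid used to anchor proteins, overlapped at 12.7 and 19.7 CPM (WT) and 20.9 and 7.22 CPM (Msx2-KO label).

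From squalene to lanosterol, Fdft1, squalene synthase and the first enzyme committed to sterols, was above WT in both libraries with 11.5 and 16.4 CPM in WT and 26.8 and 25.7 CPM in the Msx2-KO-labelled libraries, a log2 fold change of 0.91 ± 0.51. Sqle, squalene epoxidase, had 4.14 and 13.6 CPM in WT against 5.99 and 41.6 CPM under the Msx2-KO label, and Lss, lanosterol synthase, had 22.4 and 17.8 CPM (WT) and 66.6 and 20.0 CPM (Msx2-KO label). Each of these 2 was high in 1 library only, and the libraries differ: replicate 2 for Sqle and replicate 1 for Lss. The 9 genes from lanosterol onward were mixed, with 2 above WT in both, 2 below and 5 overlapping. Msmo1, the sterol C4 demethylase, had 5.74 and 19.4 CPM in WT and 53.9 and 28.9 CPM in the Msx2-KO-labelled libraries, a log2 fold change of 1.74 ± 0.79 that ran from 1.07 without WT replicate 1 to 2.75 without WT replicate 2. Cyp51, the lanosterol demethylase, had 7.08 and 16.8 CPM in WT against 38.5 and 22.3 CPM under the Msx2-KO label, a log2 fold change of 1.36 ± 0.69. Below WT were Sc5d, a late desaturase, with 6.94 and 9.05 CPM (WT) and 0 and 4.67 CPM (Msx2-KO label), and the isomerase Ebp with 7.34 and 5.17 CPM in WT and 3.27 and 3.40 CPM in the Msx2-KO-labelled libraries. Both had 55 estimated counts or fewer in every library, and Sc5d had 0 in Msx2-KO replicate 1. Lbr, a sterol reductase that also anchors chromatin to the inner nuclear membrane, was level at 23.7 and 23.6 CPM in WT against 31.3 and 21.4 CPM under the Msx2-KO label. Dhcr7, the last enzyme, overlapped at 10.4 and 8.73 CPM (WT) and 14.6 and 7.43 CPM (Msx2-KO label), and so did Tm7sf2, a second reductase of the Lbr step, at 7.67 and 4.50 CPM in WT and 3.16 and 5.31 CPM in the Msx2-KO-labelled libraries. Hsd17b7, the 3-keto sterol reductase, had 2.40 and 4.53 CPM in WT against 19.4 and 2.12 CPM under the Msx2-KO label and Nsdhl, the C4 sterol dehydrogenase, 3.87 and 2.59 CPM (WT) and 0 and 8.49 CPM (Msx2-KO label), each carried by 1 library.

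Genes known as SREBP1 targets that make fatty acids had larger fold changes, with a median log2 value of 1.62 where the 20 tested synthesis enzymes had 0.66. Of 12 tested, 11 had a positive log2 fold change and 9 were above WT in both libraries, against 17.5% of all tested genes. At an unadjusted edgeR p under 0.05 with a fold over 2, 6 were higher, against 5.02%. By edgeR 0 were called. DESeq2 called 3 higher (Scd1, Elovl6 and Me1), against 2.24% of all genes, and limma-trend 2 (Scd1 and Elovl6), against 1.1%. Scd1, the stearoyl desaturase, had 17.6 and 19.7 CPM in WT and 976 and 759.9 CPM in the Msx2-KO-labelled libraries, a log2 fold change of 5.54 ± 0.32. Elovl6, a fatty acid elongase, had 19.2 and 28.1 CPM in WT against 561 and 390.3 CPM under the Msx2-KO label, and Fasn, fatty acid synthase, 42.3 and 61.7 CPM (WT) and 126 and 141 CPM (Msx2-KO label). Fasn was picked after its values were seen. In the remaining lists the prenyl and dolichol branch had 6 positive and 7 negative log2 fold changes (median -0.17), sterol sensing and degradation 11 and 6 (median 0.24), other sterol transport and storage 7 and 15 (median -0.19), and sterol hydroxylation and sulfation 5 and 1 (median 1.78). By edgeR 0 were called in each of the 4. At an unadjusted edgeR p under 0.05 with a fold over 2, they held 0, 1, 0 and 0 higher and 0, 0, 4 and 1 lower. Of all tested genes 5.02% were higher and 12.2% lower. In sterol hydroxylation and sulfation 2 of the 6 tested lay above WT in both libraries, against 17.5% of all genes. Hsd3b7 and Cyp46a1 were high in Msx2-KO replicate 1 alone. DESeq2 called 2 of the transport genes lower (Gramd1c and Nceh1), against 2.43% of all genes. By limma-trend 4 were lower (the same 2, Gramd1b and Osbpl6), as was Ch25h, where it called 8.66% of all genes lower. Gramd1b, Gramd1c, Osbpl6, Nceh1 and Ch25h had 0 counts in both Msx2-KO-labelled libraries and at most 70 estimated counts in WT.

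Marker lists of other cells differed in the same libraries. Of all 14422 tested genes, 17.5% were above WT in both libraries labelled Msx2-KO and 33.5% below. At an unadjusted edgeR p under 0.05 with a fold over 2, 5.02% were higher. Of 8 sebaceous gland genes listed, 6 were in the HFSC table and all 6 were above WT in both libraries at unadjusted edgeR p under 0.05, with summed CPM of 11.1 and 12.2 in the WT libraries against 287 and 141. Far2, which makes fatty alcohols for wax, had 2.25 and 4.08 CPM in WT and 115 and 48.0 CPM in the Msx2-KO-labelled libraries. Cidea, a lipid droplet protein, had 0 counts in both WT libraries, and Awat2 and Dgat2l6, enzymes of wax ester and triglyceride making, were not listed. Suprabasal genes summed to 192 and 217 in the WT libraries against 812 and 3153, with 6 of 7 tested above WT, and cycling genes to 43.5 and 51.1 in the WT libraries against 542 and 384, with 5 of 6. HFSC markers summed to 6271 and 5974 in the WT libraries against 3284 and 3532, and basal epidermal markers to 7494 and 7486 in the WT libraries against 4484 and 4377, with 4 of 5 below. Fibroblast markers summed to 47.8 and 64.0 in the WT libraries against 27.0 and 12.3, endothelial and pericyte markers to 10.4 and 5.22 in the WT libraries against 6.10 and 4.03, and immune markers to 9.08 and 4.85 in the WT libraries against 20.2 and 10.4. All of the immune sum under the Msx2-KO label was Cd74, while Ptprc and H2-Ab1 were at 0 there and above 0 in WT. Adipocyte markers were at 0 in both libraries labelled Msx2-KO. The part of these cells in the values of Soat1, Srebf1 and the enzymes was not tested.

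In EpdSCs 15 of the 21 synthesis enzymes lay above WT in both libraries labelled Msx2-KO, while Mvk, Pmvk, Srebf1 and Nr1h2 lay below it. Of those above, Ggps1, Tm7sf2, Msmo1 and Nsdhl overlapped WT with library totals as the scale. The EpdSC values had been scaled by the authors, each library by its own factor, so they were tested with limma on log2(value + 1), and a fold change on that scale understates the change of low genes. Of the 34 genes, 1 was called higher (Lbr) and 0 lower, against 1.57% and 7.78% of the 16231 genes tested. At an unadjusted limma p under 0.05 with a fold over 2, 11 were higher and 2 lower, against 12.2% and 23.1%. For 19 of the 34 genes both Msx2-KO-labelled libraries exceeded both of WT, against 27.8% of all genes, and 4 were below in both, against 44.5%. The median log2 fold change was 1.03, with 26 positive and 8 negative, where the median of all genes was -0.64. Rescaling to library totals moved the median of all genes by -0.24, and leaving out mitochondrial and ribosomal RNA genes first by -0.50. Relative to all genes the list stood 1.66 higher as deposited, 1.64 and 1.63 higher under those scalings, and 1.38 to 1.90 higher with 1 library left out. With library totals 14 of the 34 lay above WT in both libraries and 6 below, against 24.7% and 46.2% of all genes. Without WT replicate 1 or WT replicate 2, limma called 0 genes of the whole table, with 2060 and 2077 at an unadjusted p under 0.05 and a fold over 2. Without Msx2-KO replicate 1 the calls of the list were 13 higher and 1 lower, against 12.9% and 24.7% of all genes, and without Msx2-KO replicate 2 they were 14 higher and 7 lower, against 23.1% and 40.9%.

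**Figure D2:**
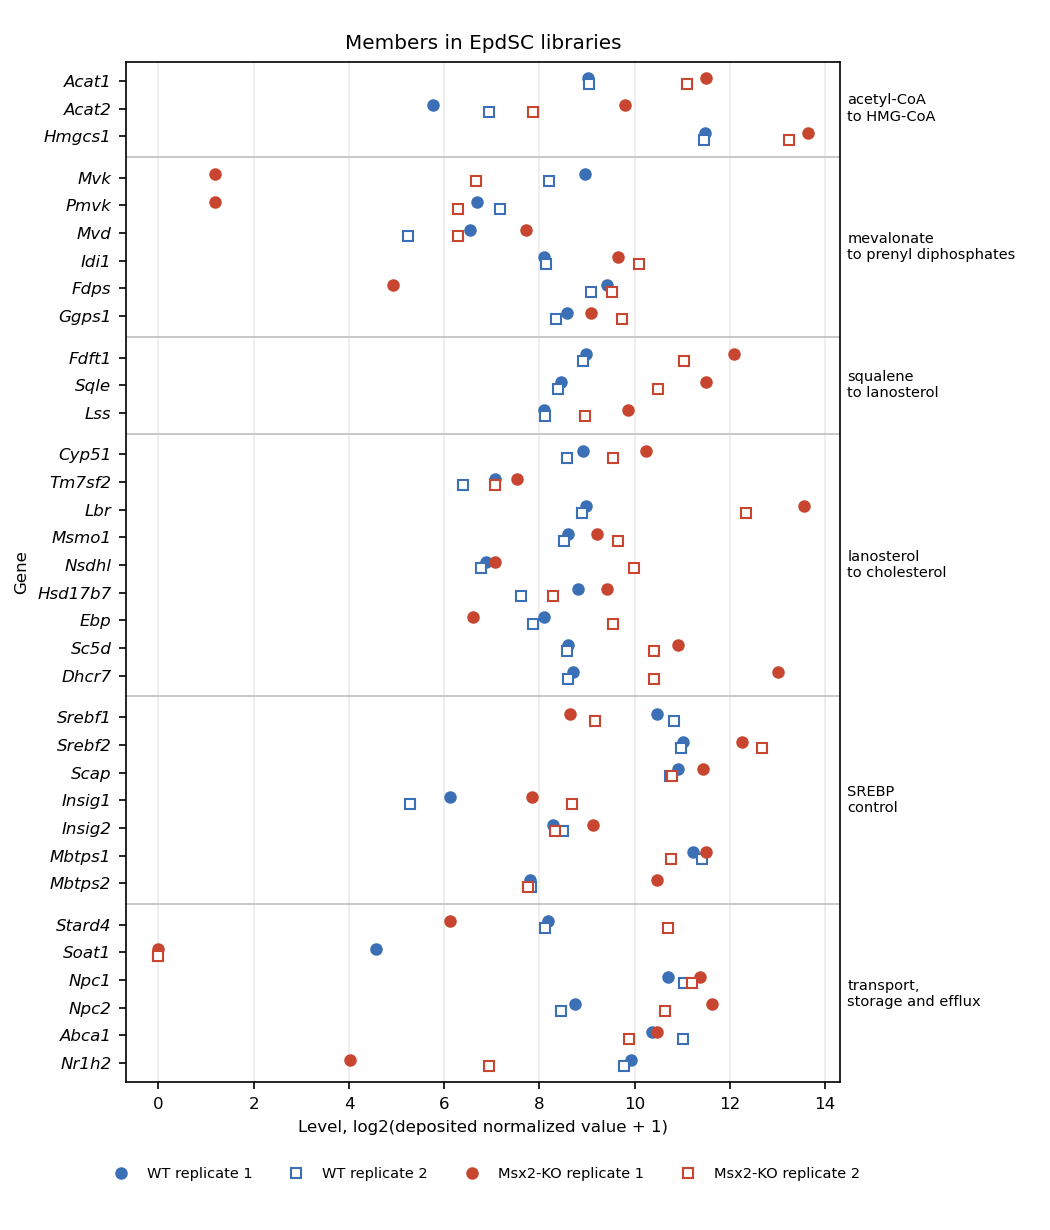
Level of each of the 34 genes in the 4 EpdSC libraries, as log2(deposited normalized value + 1) on the x axis, with genes in rows grouped by role. Colours and symbols are WT blue, Msx2-KO red, replicate 1 filled circles and replicate 2 open squares. Lbr shows the widest gap above WT, Mvk, Pmvk and Nr1h2 sit far below WT in Msx2-KO replicate 1, and Soat1 is at 0 in both Msx2-KO libraries.

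Lbr (chr1:181815335-181843047, minus strand) had 499.7 and 473 in WT against 12126 and 5172 under the Msx2-KO label. The WT libraries were close together, and both others were far above them. The log2 fold change was 4.02 ± 0.64, or 16.3-fold on the log2(value + 1) scale, with a limma Benjamini-Hochberg adjusted p of 0.0455. The log2 fold change ran from 3.41 without Msx2-KO replicate 1 to 4.64 without Msx2-KO replicate 2. The adjusted p stood near the threshold, at 0.0682 with a pseudocount of 0.1 and 0.0540 with the replicate number as a block. An exon of Lbr overlaps Dnah14 and Gm26004. Per kilobase, Lbr went from rank 14 of the 34 genes in WT to rank 2.

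All 9 genes from lanosterol to cholesterol, Lbr among them, had positive log2 fold changes. Dhcr7 had 416 and 389 (WT) and 8252 and 1358 (Msx2-KO label), with log2 fold change 3.05 ± 1.05 and a wide gap between its 2 high libraries. Sc5d had 386 and 383 in WT and 1924 and 1366 in the Msx2-KO-labelled libraries, with log2 fold change 2.07 ± 0.49 (limma adjusted p = 0.0814). Cyp51 had 480.4 and 383 in WT against 1215 and 744 under the Msx2-KO label, and Msmo1 387 and 365 (WT) and 589.6 and 808 (Msx2-KO label), both above WT in both libraries, though Msmo1 overlapped with library totals. Nsdhl was high in replicate 2 alone, at 116 and 108 in WT and 134 and 1015 in the Msx2-KO-labelled libraries. Tm7sf2 had 133 and 83.5 in WT against 183 and 134 under the Msx2-KO label. Hsd17b7 and Ebp overlapped, and the log2 fold change of Ebp, 0.10, turned to -0.16 under library totals.

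At the start of the pathway all 3 genes were above WT in both libraries. Hmgcs1 had 2859 and 2803 (WT) and 12680.2 and 9683 (Msx2-KO label), the highest per kilobase of the 34 genes in both groups. Its log2 fold change was 1.97 ± 0.48 (limma adjusted p = 0.0843). Acat1 had 517 and 529 in WT and 2909.7 and 2205 in the Msx2-KO-labelled libraries, with log2 fold change 2.27 ± 0.48 and limma adjusted p = 0.0686, which became 0.0458 with a pseudocount of 10. Acat2 had 53.3 and 123 in WT against 889.9 and 232 under the Msx2-KO label, with log2 fold change 2.48 ± 0.94. The 3 genes from squalene to lanosterol were above WT as well. Fdft1 had 503 and 479 (WT) and 4375 and 2094 (Msx2-KO label), and Sqle 352 and 337 in WT and 2886 and 1446 in the Msx2-KO-labelled libraries. Their log2 fold changes were 2.62 ± 0.60 and 2.57 ± 0.58, with limma adjusted p of 0.0774 and 0.0769. Lss had 271 and 277 in WT against 929.6 and 498 under the Msx2-KO label, with a smaller log2 fold change of 1.31 ± 0.56. An exon of Fdft1 overlaps one of Ctsb, the gene of the lysosomal protease cathepsin B.

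The steps from mevalonate to the prenyl diphosphates split. Idi1 had 273 and 282 (WT) and 804 and 1087 (Msx2-KO label) and lay above WT. Ggps1 had 379 and 326 in WT and 542 and 857 in the Msx2-KO-labelled libraries, also above WT, though it overlapped with library totals. Mvk had 497 and 291 in WT against 1.27 and 100.4 under the Msx2-KO label, where 1.27 is the value of a single count in that library. Pmvk had 103 and 143 (WT) and 1.27 and 76.8 (Msx2-KO label), at the same single count. Both lay below WT in both libraries, with log2 fold changes of -4.65 ± 2.06 and -3.20 ± 1.91 whose errors are wide, and neither passed an unadjusted limma p of 0.05 (0.0899 and 0.173). Fdps had 680.1 and 539 in WT and 29.3 and 732 in the Msx2-KO-labelled libraries, low in 1 library and at the WT level in the other, and its log2 fold change of -2.03 became 0.27 without Msx2-KO replicate 1. Mvd overlapped at 92.1 and 37.0 in WT against 209 and 76.8 under the Msx2-KO label.

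In the control machinery the 2 SREBP genes lay on opposite sides of WT. Srebf2 had 2077 and 2005 (WT) and 4864 and 6569 (Msx2-KO label), with log2 fold change 1.47 ± 0.48 and limma unadjusted p = 0.0412. Srebf1 had 1424 and 1805 in WT and 401 and 576 in the Msx2-KO-labelled libraries, with log2 fold change -1.74 ± 0.51 and limma unadjusted p = 0.0294. The adjusted p was 0.129 and 0.110, so neither was called, and the difference between the 2 genes was not tested. Insig1, itself a classical SREBP target, had 68.2 and 37.9 in WT against 229 and 409 under the Msx2-KO label, with log2 fold change 2.57 ± 0.63. Scap, Insig2, Mbtps1 and Mbtps2 overlapped, with log2 fold changes from -0.18 to 1.30. Mbtps2 was carried by replicate 1, at 1419 and 214 against 221.8 and 225 in WT.

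Of the transport genes, Npc2, which hands cholesterol to Npc1 inside the lysosome, had 427 and 347 (WT) and 3173 and 1597 (Msx2-KO label). Its log2 fold change was 2.55 ± 0.59 (limma adjusted p = 0.0792). Npc1 had 1673 and 2088 in WT and 2636 and 2363 in the Msx2-KO-labelled libraries, with log2 fold change 0.42 ± 0.48. Nr1h2 had 965 and 882 in WT against 15.3 and 122 under the Msx2-KO label, with log2 fold change -4.37 ± 1.15 (limma unadjusted p = 0.0211). Abca1, a target of the receptor that Nr1h2 encodes, overlapped at 1320.3 and 2065 (WT) and 1419.8 and 938 (Msx2-KO label). Stard4 had 290.3 and 275 in WT and 68.8 and 1661 in the Msx2-KO-labelled libraries, low in 1 library and high in the other. Soat1 was listed at 22.7 in WT replicate 1 and at 0 in the other 3 EpdSC libraries, so no fold is given. The median over the remaining 33 genes was 1.10.

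**Figure D3:**
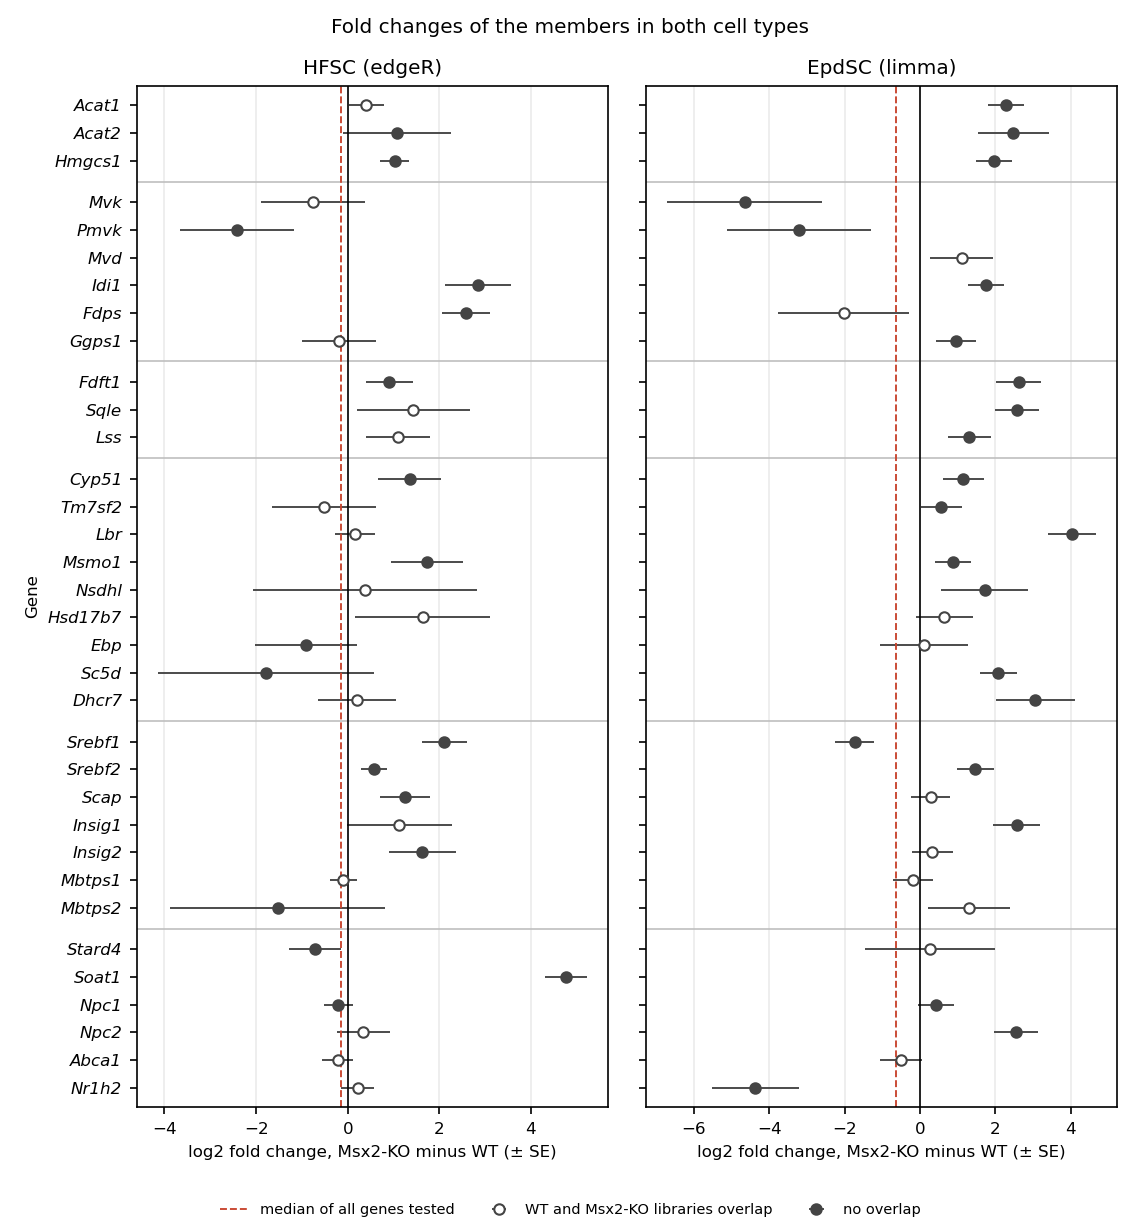
log2 fold change (Msx2-KO minus WT) of each gene on the x axis with its standard error as bars, for HFSCs by edgeR on the left and EpdSCs by limma on the right, 2 libraries a group. Filled points are genes whose WT and Msx2-KO libraries do not overlap, the dashed red line is the median of all genes tested, and Mvd in HFSCs (not tested) and Soat1 in EpdSCs (listed at 0) have no meaningful fold, so none is drawn. Soat1 lies farthest right in HFSCs and Lbr in EpdSCs.

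Related genes outside the list were mostly without a call in EpdSCs. Of 17 genes of sterol sensing and degradation, 12 had positive log2 fold changes and 1 was called, higher, as were 1.57% of all genes. This was Ube2g2, a ubiquitin-conjugating enzyme of endoplasmic reticulum degradation, with 219.9 and 229 in WT against 2081 and 1688 under the Msx2-KO label, a log2 fold change of 3.06 ± 0.47 and a limma adjusted p of 0.0435. Of 22 other genes of sterol transport and storage, 10 were positive and 12 negative. The one called, lower as were 7.78% of all genes, was Lrp1, a lipoprotein receptor, which fell from 4982 and 5871 to 397 and 418 (log2 fold change -3.73 ± 0.47, limma adjusted p = 0.0314). The fatty acid genes were split, with 7 positive, 5 negative, a median of 0.83 and 0 called by limma. At an unadjusted limma p under 0.05 with a fold over 2, 4 were higher and 1 lower, against 12.2% and 23.1% of all genes. Acly, which supplies cytosolic acetyl-CoA, had 2505 and 2093 (WT) and 48907 and 6473 (Msx2-KO label), and Acaca, the next enzyme toward fatty acids, 956 and 1048 in WT and 7.48 and 113 in the Msx2-KO-labelled libraries. They were picked after their values were seen. The prenyl and dolichol branch had 7 positive and 6 negative, and sterol hydroxylation and sulfation 2 and 3. By limma 0 were called in either list, with 2 and 1 higher and 0 lower at the unadjusted threshold.

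Marker lists differed between the EpdSC libraries too. Of all genes 27.8% were above WT in both libraries labelled Msx2-KO and 44.5% below, and limma called 1.57% higher. Suprabasal genes, the layer where barrier lipid is made, had 8 of 8 negative log2 fold changes and 2 calls (Sbsn and Ivl lower, against the same 7.78% of all genes), and their summed values were 299839 and 216564 in the WT libraries against 107407 and 82075. Cycling genes summed to 3531 and 2867 in the WT libraries against 9174 and 3846, with 4 of 6 above WT and Cdk1 and Ube2c called higher, while Mki67 had 2517 and 2055 in WT against 7.64 and 294 under the Msx2-KO label. Basal markers summed to 233031 and 279441 in the WT libraries against 627792 and 519350.0, with 4 of 6 above. Immune markers summed to 764 and 91.1 in the WT libraries against 0 and 6.74, with 0 for Ptprc in both libraries labelled Msx2-KO. Of the 8 sebaceous genes 2 were listed, Mgst1 and Far2, and summed to 77.0 and 73.0 in the WT libraries against 354 and 212. HFSC markers, of which 5 were listed, summed to 81231 and 97953 in the WT libraries against 231691 and 179902, nearly all of it Krt15. The 1 endothelial marker listed, Pecam1, reached at most 24.2, and no fibroblast or adipocyte marker was listed. The part of these shifts in the values of the sterol genes was not tested.

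**Figure D4:**
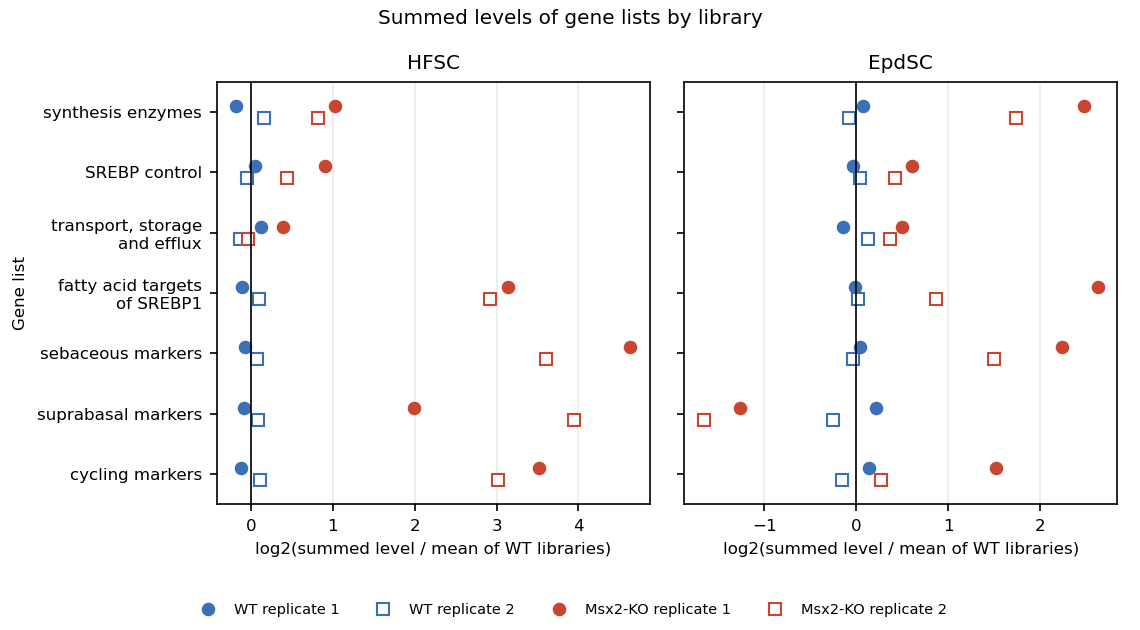
Summed level of each gene list in each library on a log2 scale, relative to the mean of the 2 WT libraries of that cell type, with HFSCs on the left and EpdSCs on the right. Blue is WT, red Msx2-KO, filled circles replicate 1 and open squares replicate 2. The synthesis enzymes are above WT in both cell types on the scales plotted, sebaceous markers stand far above WT in HFSCs, and suprabasal markers are above WT in HFSCs and below it in EpdSCs.

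The summed level of the 21 synthesis enzymes was 229 and 289.6 in the WT libraries against 528 and 455 CPM in HFSCs, and 9716 and 8776 in the WT libraries against 51458 and 30744 in EpdSCs. Per 1000000 counts of the library totals the HFSC sums were 396 and 286 in WT against 440.1 and 311, so the groups overlapped on that scale. These sums are weighted by the highest genes, Hmgcs1 above all. In EpdSCs labelled Msx2-KO Lbr weighed heavily too, at 12126 and 5172 beside 12680 and 9683 for Hmgcs1. Because the tables were normalized separately, values are set side by side and the difference between cell types was not tested. In both cell types 8 genes left WT on the same side, 7 above (Hmgcs1, Acat2, Idi1, Fdft1, Cyp51, Msmo1 and Srebf2) and 1 below (Pmvk). Of 13151 genes tested in both tables, 5.67% were above in both and 15.3% below in both. With library totals Acat2, Fdft1, Cyp51 and Srebf2 overlapped WT in HFSCs and Msmo1 in EpdSCs, which left 2 above in both (Hmgcs1 and Idi1) and Pmvk below. A further 3 left it on opposite sides, Srebf1 (2.11 in HFSCs and -1.74 in EpdSCs on the log2 scale), Sc5d (-1.78 and 2.07) and Npc1 (-0.20 and 0.42), where 16.5% of the 13151 genes did. With library totals Npc1 overlapped in EpdSCs and the other 2 stayed on opposite sides. Srebf1 in HFSCs did so narrowly, at 47.9 and 26.7 per 1000000 in WT against 137 and 48.6 under the Msx2-KO label. Soat1 had the largest fold of the list in HFSCs, and Lbr the largest increase of the list in EpdSCs. Soat1 differed 27.3-fold in HFSCs and was listed at 0 in most EpdSC libraries, and Lbr differed 16.3-fold in EpdSCs and had a log2 fold change of 0.16 ± 0.44 in HFSCs.

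Order of level, per kilobase of exon, was led by a few genes. In WT HFSCs the highest were Abca1 (21.8 CPM per kb), Mbtps1 (12.9), Hmgcs1 (12.9) and Srebf2 (12.2), of which the last 3 were within their spread. In those labelled Msx2-KO the highest were Hmgcs1 (26.2 CPM per kb), Srebf1 (20.9), Abca1 (18.7) and Srebf2 (18.1). In WT EpdSCs Hmgcs1 led with 616 normalized units per kb, followed by Srebf1 (287), Srebf2 (284) and Nr1h2 (275). In those labelled Msx2-KO it was followed by Lbr (1817) and Dhcr7 (826), and Srebf1 and Nr1h2 stood at ranks 26 and 32.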

How the data were processed

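Per the study's methods and processing notes, total RNA libraries from sorted cells were made with a stranded SMARTer kit and aligned to GRCm38 with STAR 2.7.3a in Partek. The HFSC table holds the authors' estimated counts per gene, deposited without scaling, with reads that match several genes split. The EpdSC table holds a signal as deposited: estimated counts that the authors had multiplied by a library-specific constant, from which low genes had been removed by a rule not given in the sources used here. Its depth in reads is not given. The commonest step between its low values, taken as 1 count, was 1.08 and 0.948 in WT and 1.27 and 0.674 in the Msx2-KO-labelled libraries. Deposited tables of the authors' own fold changes and p-values were not used.

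HFSC counts were rounded to whole numbers and filtered (filterByExpr), then tested with edgeR 4.0.16 (TMM, quasi-likelihood). For EpdSCs log2(value + 1) of every gene was fitted with limma 3.58.1. p-values were Benjamini-Hochberg adjusted over all genes tested, and calls needed an adjusted p under 0.05 and a fold over 2. DESeq2 1.42.0 and limma-trend were alternatives for HFSCs. Scripts were tested on simulated counts with less spread between libraries than the HFSC counts had, which does not show how the tests behave at that spread. Samples were grouped by their labels, within a cell type. Genes given in full were those called and, per cell type, up to 8 non-overlapping ones of smallest p, and from the other lists those called. The 34 genes and all lists were chosen with earlier results of these data known. Replicate numbers were not treated as pairs in the main fits. The correlation of same-numbered deviations was -0.04 in HFSCs and -0.02 in EpdSCs. It has no reference value here and does not show whether same-numbered libraries shared a batch. Exon lengths and overlaps are from GENCODE M21, and gene positions from the deposited HFSC table.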

Additional observations from a re-analysis of the deposited data

Results flagged for a closer look

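For 3 genes, both Msx2-KO-labelled libraries lay on opposite sides of WT in the 2 cell types. Srebf1 had a log2 fold change of 2.11 in HFSCs and -1.74 in EpdSCs. With library totals its HFSC groups all but touched, at 47.9 in WT replicate 1 and 48.6 in Msx2-KO replicate 2. Sc5d had -1.78 in HFSCs, where Msx2-KO replicate 1 was at 0, and 2.07 in EpdSCs. Npc1 had -0.20 in HFSCs and 0.42 in EpdSCs, each smaller than its standard error, and the EpdSC value turned to -0.12 without mitochondrial and ribosomal RNA genes. The HFSC and EpdSC tables were normalized separately and the WT mice differed in age, so the difference between cell types was not tested. In HFSCs the sebaceous markers and the fatty acid genes stood above WT in the same libraries as Srebf1, and their part in it was not tested.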

How the results depend on the processing

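The 16 fold changes given in full, 8 per cell type, kept their direction under every alternative run, though not their size (Hmgcs1 in HFSCs, 1.03, was 0.25 with library totals). In HFSCs, where edgeR called 0 genes, DESeq2 called 674 genes and 4 of the list, limma-trend 1407 and 1, library totals 51 and 0, and the replicate number as a replicate block 231 and 2 (Soat1, adjusted p = 0.00024, and Srebf1, adjusted p = 0.047, by edgeR). The list median, 0.41, was -0.48 with library totals, as the median of all genes moved too. With 1 library left out at a time, HFSC calls ran from 132 to 9272 genes and from 1 to 14 of the list, and the list median from 0.12 to 0.61.

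In EpdSCs the list held 1 call (Lbr), which became 0 with a pseudocount of 0.1, 2 with a pseudocount of 10 (Lbr and Acat1) and 0 with the replicate block, where Lbr had a limma adjusted p of 0.0540. The list median, 1.03, was 0.76 with library totals and 0.50 without mitochondrial and ribosomal RNA genes. Of EpdSC calls, 16.8% were higher, and 31.4% with a pseudocount of 10. With 1 library left out at a time, calls ran from 0 to 10376 genes and from 0 to 21 of the list, and the median from 0.84 to 1.27. The counts without a Msx2-KO replicate rest on the spread between the 2 WT libraries alone. The replicate numbers mark no shared animal or batch in the labels, and the block changed no other call of the list.

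HFSC genes at low counts, such as Acat2 and Mvd, carry wide counting error, and 2 libraries a group limit every test. Sc5d, Nsdhl, Mbtps2 and Mvd were at 0 in Msx2-KO replicate 1, which had the largest HFSC total and the fewest genes above 0 (11749). HFSC groups differ in age as well as genotype.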
